A study of Mus musculus with 6 samples.

Results

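Nuclear factor kappa B (NF-kB) and its inhibitors were followed through 10 genes of ovarian granulosa cells (GCs): the subunit genes Nfkb1, Nfkb2, Rela and Relb, the classical inhibitor genes Nfkbia, Nfkbib and Nfkbie, the atypical inhibitor genes Nfkbiz and Bcl3, and Tnfaip3, which encodes A20. They were picked by gene name from the 54532 genes of the deposited expression table, and all 10 were found. The GCs, the somatic cells that surround the oocyte, came from 3-week-old female ICR mice primed with 5 IU of PMSG, a gonadotropin that drives follicle growth. At 22 h after PMSG the mice received either PBS or 120 mg/kg of cyclophosphamide (CTX), an alkylating chemotherapy drug, by injection, and RNA-seq of the GCs 6 h later gave 3 PBS samples and 3 CTX samples. Each sample pooled the GCs of 3 mice, so every animal was primed with PMSG and each value is an average over pooled animals.

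In resting cells NF-kB dimers, of which the RELA and p50 pair is the best known, are held in the cytoplasm by the inhibitor proteins IkB-alpha, IkB-beta and IkB-epsilon (genes Nfkbia, Nfkbib and Nfkbie). The IKK kinase complex marks these inhibitors for destruction, after which the dimers enter the nucleus and switch on genes that include Nfkbia, Nfkbiz and Tnfaip3 themselves, so that the pathway carries its own brakes. DNA damage can reach IKK from the nucleus through the kinase ATM and the scaffold protein PIDD1. In GCs the pathway is known for its part in inflammation-like events of ovulation and in cell survival.

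Reads per sample, rebuilt from the deposited FPKM (fragments scaled by gene length and library size) and gene lengths, numbered 16005869 to 18455011. All 12 GC marker genes were above the mean of 0.5 FPKM required for testing. So were 8 of 8 oocyte, 7 of 8 theca and stroma, 12 of 18 leukocyte and 2 of 8 endothelial markers. Passing this filter therefore does not show identity. The GC markers were led by Inha (9205, 9212 and 10402 FPKM in PBS and 8933, 9180 and 8556 FPKM in CTX) and Inhbb, which encode inhibin and activin chains, and Hsd17b1, an enzyme of estradiol synthesis. CTX replicate 2 stood apart from the others, at 74.7 on a first principal component on which the PBS samples lay between -26.6 and -25.3 and the other CTX samples at -9.81 and 13.2. The limma fits were therefore also run without it, while sums, ratios, orders and sample ranges were computed over all samples only. In pooled tissue RNA, fewer cells of a type and less RNA per cell cannot be told apart.

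Among the 10 genes, 3 rose after CTX and none fell past the test: the inhibitor genes Nfkbia and Nfkbiz and the A20 gene Tnfaip3. The differences were tested with limma on log2(FPKM + 0.1) over 14463 genes with Benjamini-Hochberg adjustment, and a gene was called differentially expressed (DEG) where the adjusted p was below 0.05 and the levels differed over 2-fold. Of all genes tested, 0.802% were DEGs higher after CTX and 0.159% were DEGs lower after CTX. The same 3 genes passed the adjusted p without regard to fold, where the shares of all genes were 1.40% higher and 0.360% lower. The median log2 difference was 0.31 over the 10 genes and -0.01 over all genes tested. All differences below are CTX minus PBS on the log2(FPKM + 0.1) scale, which understates the change of low genes.

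Nfkbia, the gene of IkB-alpha and the fastest classical feedback inhibitor, lies on the minus strand at chr12:55489410-55492647 of mm10. Its level was 33.1, 31.8 and 33.8 FPKM in the PBS samples and 89.0, 83.8 and 74.3 FPKM in the CTX samples. The groups were far apart: the lowest CTX sample stood well above the highest PBS sample, and the PBS samples were nearly equal. The mean rose from 32.9 ± 1.03 to 82.4 ± 7.47 FPKM (SD, n = 3 each), 2.50-fold. The log2 difference was 1.32 with a standard error (SE) of 0.08, a 95% interval of 1.12 to 1.52 and a limma adjusted p of 0.00142. Between 882 and 2598 reads lay behind each value, and Nfkbia was a DEG under all 16 alternative settings, with differences of 1.19 to 1.39.

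Nfkbiz encodes IkB-zeta, an atypical inhibitor protein that works in the nucleus, where it binds p50 and can raise or lower the output of selected targets. The gene is at chr16:55811375-55838899 on the minus strand. It was measured at 2.54, 3.40 and 2.62 FPKM in PBS and at 12.0, 8.61 and 16.6 FPKM in CTX. No CTX sample overlapped a PBS sample, but the CTX samples spread over almost a doubling, with replicate 2 the lowest and replicate 3 the highest. The mean went from 2.85 ± 0.477 to 12.4 ± 4.02 FPKM (SD, n = 3 each), 4.34-fold, and the log2 difference was 2.04 (SE 0.25, 95% interval 1.44 to 2.64, limma adjusted p = 0.0174). It ranked 72 of 14463 genes by log2 difference, ahead of Tnfaip3 at 187 and Nfkbia at 212. The call was lost without PBS replicate 1 (adjusted p = 0.0984), without PBS replicate 2 (0.0620) and without PBS replicate 3 (0.105), while without CTX replicate 2 the difference was 2.28 with an adjusted p of 0.00281.

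Tnfaip3 encodes A20, a ubiquitin-editing enzyme that shuts off signalling upstream of IKK, and lies at chr10:19000910-19015657 on the minus strand. It stood at 0.839, 1.05 and 0.957 FPKM in PBS and at 2.64, 2.49 and 2.75 FPKM in CTX. The groups were tight and did not overlap. The mean rose from 0.948 ± 0.106 to 2.63 ± 0.132 FPKM (SD, n = 3 each), 2.77-fold, with a log2 difference of 1.38 (SE 0.14, 95% interval 1.04 to 1.72, limma adjusted p = 0.00801). Each value rested on 108 to 356 reads. The call was lost without PBS replicate 3 (adjusted p = 0.0584) and without CTX replicate 3 (adjusted p = 0.0658), and with a pseudocount of 1 the difference was 0.90, under 2-fold.

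**Figure D1:**
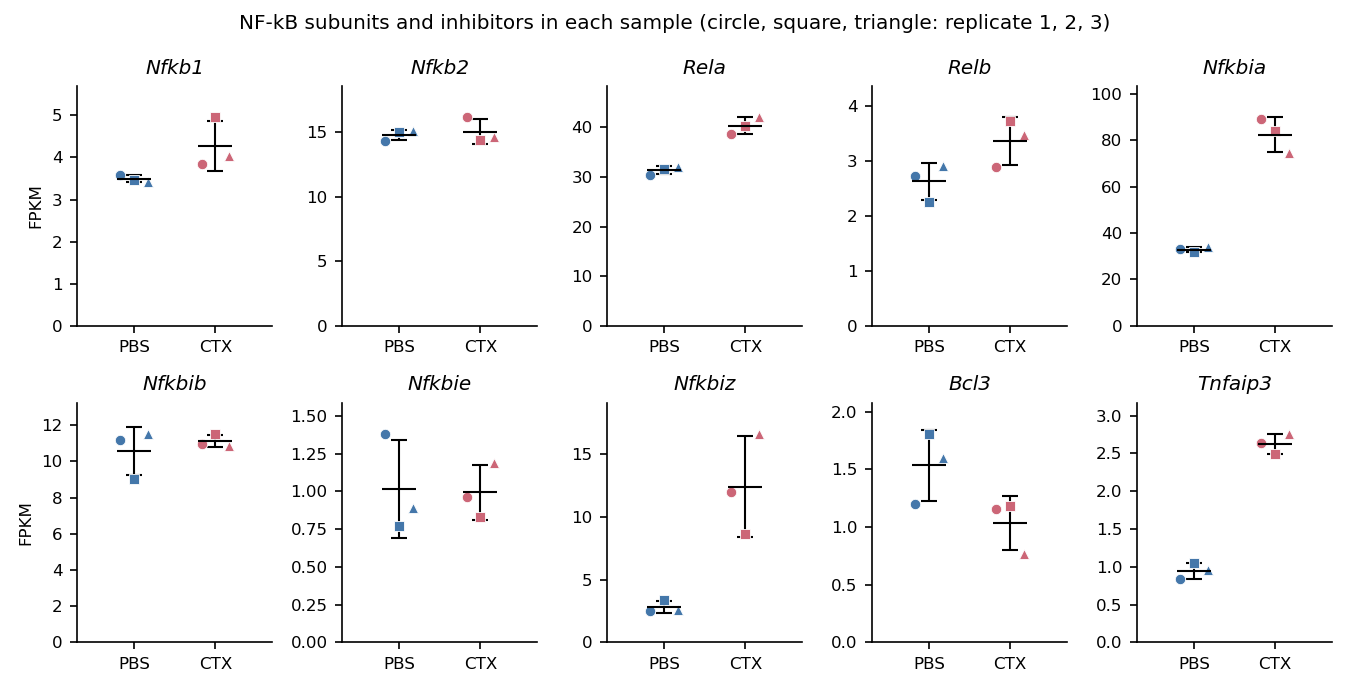
FPKM of each of the 10 genes in the 3 PBS and 3 CTX samples, on linear axes from 0 that differ between panels; points are samples, and the bar and whiskers are the group mean and SD. Nfkbia, Nfkbiz and Tnfaip3 show CTX samples far above PBS samples, Rela a small gap, and Bcl3 CTX samples below PBS samples.

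The promoters of 5 genes are shown, of Nfkbia and Tnfaip3, which rose, and of Rela, Nfkb2 and Bcl3, which did not pass the test. RefSeq promoters on GRCm38.p6, from 250 bases before to 50 after the first transcribed base, were at hand for 7 of the 10 genes. Those of Nfkb1, Relb and Nfkbiz were not at hand, so Nfkbiz, which also rose, was not searched. Both strands were searched for the NF-kB site by its 10-base kappaB consensus and for the shorter GGANTTTCC, which can overlap it. Capitals mark the matches, and sequences run 5′ to 3′ on the gene's strand.
Nfkbia (chr12:55492598-55492897, minus strand): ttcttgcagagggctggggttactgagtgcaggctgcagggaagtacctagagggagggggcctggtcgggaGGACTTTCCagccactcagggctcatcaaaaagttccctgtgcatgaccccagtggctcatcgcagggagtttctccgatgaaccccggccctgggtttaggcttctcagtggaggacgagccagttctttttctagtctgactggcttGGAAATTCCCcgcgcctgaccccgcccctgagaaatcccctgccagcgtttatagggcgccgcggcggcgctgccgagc
Tnfaip3, upstream start (chr10:19015361-19015660, minus strand): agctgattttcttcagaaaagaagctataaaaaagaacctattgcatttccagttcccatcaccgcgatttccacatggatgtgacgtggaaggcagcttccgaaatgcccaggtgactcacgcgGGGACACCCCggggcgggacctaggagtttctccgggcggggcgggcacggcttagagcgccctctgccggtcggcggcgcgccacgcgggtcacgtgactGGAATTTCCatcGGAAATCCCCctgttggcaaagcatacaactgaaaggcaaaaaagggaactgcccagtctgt
Nfkb2, upstream start (chr19:46304487-46304786, plus strand): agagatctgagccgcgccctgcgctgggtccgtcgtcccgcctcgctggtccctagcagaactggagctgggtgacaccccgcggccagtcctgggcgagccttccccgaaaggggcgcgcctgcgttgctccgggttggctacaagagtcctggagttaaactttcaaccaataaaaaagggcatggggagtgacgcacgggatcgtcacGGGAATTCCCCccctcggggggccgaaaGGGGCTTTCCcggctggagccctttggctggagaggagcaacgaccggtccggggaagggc
Bcl3 (chr7:19822706-19823005, minus strand): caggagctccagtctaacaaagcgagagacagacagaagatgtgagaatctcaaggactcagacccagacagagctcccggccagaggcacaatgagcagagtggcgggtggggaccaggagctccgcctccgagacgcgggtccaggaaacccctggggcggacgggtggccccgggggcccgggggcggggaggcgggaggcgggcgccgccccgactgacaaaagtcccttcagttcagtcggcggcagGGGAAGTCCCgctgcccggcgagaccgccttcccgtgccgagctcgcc
Rela (chr19:5637291-5637590, plus strand): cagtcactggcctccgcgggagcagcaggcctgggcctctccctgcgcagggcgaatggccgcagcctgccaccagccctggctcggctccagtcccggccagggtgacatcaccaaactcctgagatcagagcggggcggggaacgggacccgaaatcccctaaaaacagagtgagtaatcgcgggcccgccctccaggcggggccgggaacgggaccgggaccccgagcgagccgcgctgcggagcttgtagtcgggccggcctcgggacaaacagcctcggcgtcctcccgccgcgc
Over all listed starts of a gene, separate matching stretches numbered 4 in Nfkb2 (3 starts), 3 in Tnfaip3 (2 starts), 2 in Nfkbia, 1 in Bcl3, 1 in Nfkbie and 0 in Rela and Nfkbib. Of the printed promoters that of Nfkb2 holds 2 of its 4, and 5 of the 7 genes had a match in at least 1 promoter. Among all 32851 RefSeq mouse promoters of this length, 8.46% held the consensus, 1.25% held GGANTTTCC and 9.10% held either. Those shares are per promoter, while the 5 of 7 is per gene with 1 to 3 starts, so the units differ. A match here is a stretch of letters and says nothing of binding. Matches were present in genes that rose (Nfkbia, Tnfaip3) and in genes that did not pass the test (Nfkb2, Nfkbie, Bcl3).

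None of the 4 subunit genes was a DEG in the limma fit, and 1 of the 4, Rela, was below an unadjusted p of 0.05, as were 10.5% of all genes in the higher and 9.10% in the lower direction. The median log2 difference of the subunits was 0.31, against 0.70 over the 5 inhibitor genes and Tnfaip3 together. Rela encodes the main transactivating subunit, p65, and is at chr19:5637483-5648130 on the plus strand. Its level was 30.4, 31.6 and 32.1 FPKM in PBS and 38.7, 40.3 and 42.0 FPKM in CTX. Every CTX sample was above every PBS sample by a small and even margin. The mean was 31.4 ± 0.853 FPKM in PBS and 40.3 ± 1.66 FPKM in CTX (SD, n = 3 each), 1.29-fold, and the log2 difference was 0.36 (SE 0.06, 95% interval 0.21 to 0.51). The limma adjusted p was 0.0502, just outside the threshold, and it lay below 0.05 under 7 of the 16 alternative settings, among them without CTX replicate 1 (0.0484) and without CTX replicate 2 (0.0457).

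Nfkb1, which encodes p105 and its product p50, partner of RELA, is at chr3:135584655-135691547 on the minus strand. It gave 3.58, 3.47 and 3.42 FPKM in PBS and 3.84, 4.95 and 4.03 FPKM in CTX, again without overlap but with most of the difference in CTX replicate 2. Its log2 difference was 0.28 (95% interval -0.01 to 0.56, limma adjusted p = 0.261). Relb and Nfkb2, whose products RELB and p52 form the dimer of the alternative pathway, did not pass either, and their intervals overlapped. Relb (chr7:19606217-19629438, minus strand) was at 2.72, 2.26 and 2.91 FPKM in PBS and at 2.88, 3.73 and 3.46 FPKM in CTX. The Relb groups overlapped, with 1 CTX sample inside the PBS range, and the log2 difference was 0.34 (95% interval -0.01 to 0.69, limma adjusted p = 0.264). Nfkb2 (chr19:46304737-46312090, plus strand) was at 14.3, 15.0 and 15.1 FPKM in PBS and at 16.1, 14.4 and 14.6 FPKM in CTX. These ranges were intermixed. The Nfkb2 log2 difference of 0.02 had a 95% interval of -0.15 to 0.19, the narrowest of the subunits after that of Rela, and an adjusted p of 0.877.

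The other classical inhibitors did not move with Nfkbia. Nfkbib, the gene of IkB-beta, a slower inhibitor that is not a strong feedback gene, is at chr7:28758251-28767512 on the minus strand. It read 11.2, 9.05 and 11.5 FPKM in PBS and 11.0, 11.5 and 10.9 FPKM in CTX, all within 1 range. Its log2 difference was 0.08 (95% interval -0.18 to 0.33, limma adjusted p = 0.693). Nfkbib shares 778 bases with Sirt2 on the opposite strand, a gene at a similar level (11.3 FPKM in PBS and 12.3 FPKM in CTX), and whether counting used strand is not given in the sources used here, so part of its reads could belong to Sirt2. Nfkbie, the gene of IkB-epsilon, is at chr17:45555703-45563169 on the plus strand and was low, at 1.38, 0.770 and 0.892 FPKM in PBS and 0.960, 0.833 and 1.19 FPKM in CTX. With 43 to 75 reads per sample its 95% interval ran from -0.65 to 0.65 on the log2 scale, so a change of up to that size was not excluded.

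Bcl3 encodes an atypical inhibitor protein that binds p50 and p52 homodimers in the nucleus and can turn them into activators. It is at chr7:19808462-19822770 on the minus strand. Unlike Nfkbiz, its fellow atypical inhibitor, it was lower in the CTX samples, at 1.2, 1.81 and 1.60 FPKM in PBS and 1.16, 1.18 and 0.767 FPKM in CTX. The ranges did not overlap, but PBS replicate 1 lay almost level with CTX replicate 2. The log2 difference was -0.53 (SE 0.24, 95% interval -1.11 to 0.05, limma adjusted p = 0.282) on only 34 to 82 reads per sample. Bcl3 overlaps the opposite-strand genes Gm16174, over 2073 bases, and Gm16175, over 2264 bases. The means of Gm16174 were 0.804 FPKM in PBS and 0.460 FPKM in CTX, and its reads may not be separable from those of Bcl3.

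**Figure D2:**
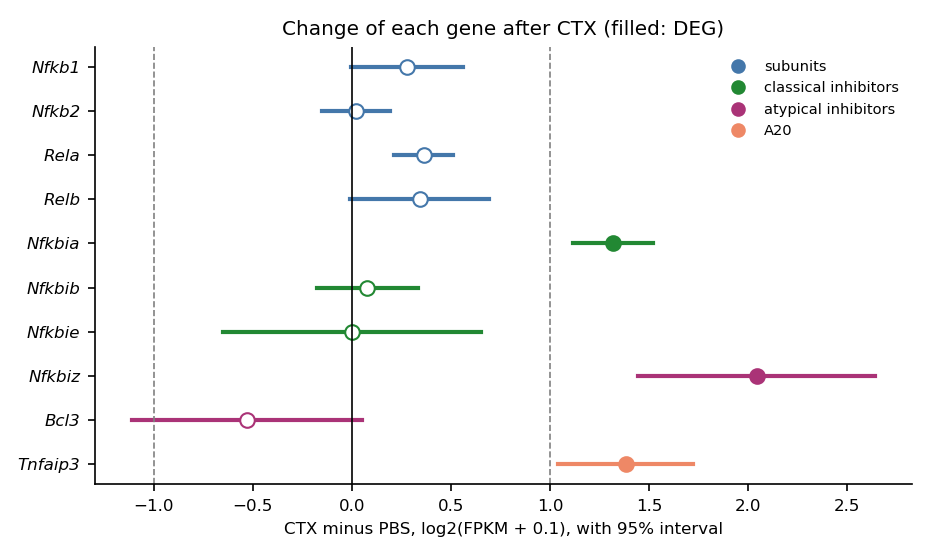
Log2 difference (CTX minus PBS, on log2(FPKM + 0.1)) of each gene with its 95% interval from the limma fit, coloured by role; filled points are DEGs and dashed lines mark 2-fold. Nfkbiz (2.04), Tnfaip3 (1.38) and Nfkbia (1.32) lie beyond 2-fold, and the intervals of the subunits lie within it.

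In 5 of the 10 genes every CTX sample was above every PBS sample, and in 1, Bcl3, every CTX sample was below. Over all genes tested these shares were 15.0% and 14.1%. With 3 samples against 3 an exact two-sided permutation test cannot go below p = 0.1, the value these 6 genes had. FPKM is per length, so levels can be ordered between genes. In PBS the order was Nfkbia, Rela, Nfkb2, Nfkbib, Nfkb1, Nfkbiz, Relb, Bcl3, Nfkbie and Tnfaip3, in which the sample ranges of the neighbours Nfkbia and Rela, Nfkbiz and Relb, Bcl3 and Nfkbie, and Nfkbie and Tnfaip3 overlapped. In CTX, Nfkbia no longer overlapped Rela, Nfkbiz had moved level with Nfkb2 and Nfkbib, and Tnfaip3 stood above both Bcl3 and Nfkbie without overlap.

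The summed level of the classical inhibitors can be set beside that of the subunits in each sample, as a description of mRNA only. The 4 subunits summed to 51.1, 52.3 and 53.5 FPKM in PBS and to 61.5, 63.4 and 64.1 FPKM in CTX. Nfkbia, Nfkbib and Nfkbie summed to 45.6, 41.6 and 46.2 FPKM in PBS and to 101.0, 96.2 and 86.4 FPKM in CTX. Inhibitor mRNA was thus below subunit mRNA in every PBS sample and above it in every CTX sample, with ratios of 0.894, 0.796 and 0.865 in PBS and 1.64, 1.52 and 1.35 in CTX. Nfkbia made up 72.5% to 76.4% of the classical inhibitor sum in PBS and 86.0% to 88.2% in CTX, and Rela made up 59.6% to 60.4% of the subunit sum in PBS and 62.9% to 65.6% in CTX.

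**Figure D3:**
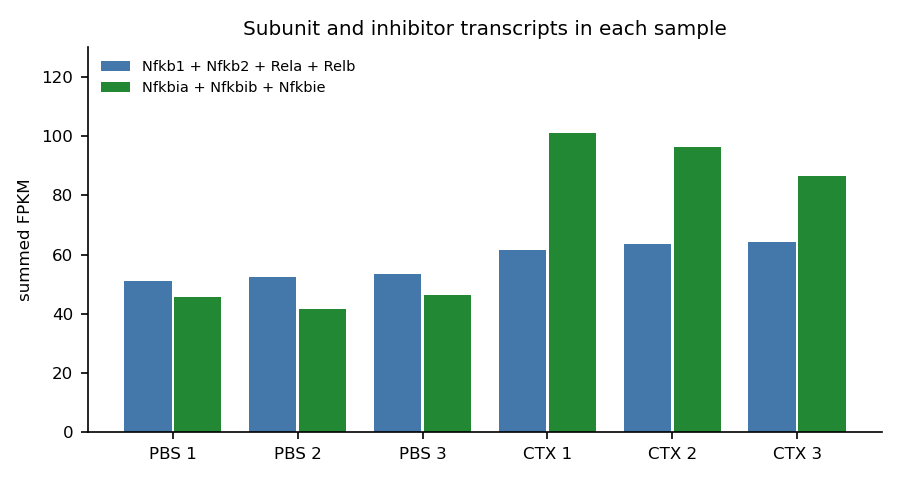
Summed FPKM of the 4 subunit genes (blue) and of the 3 classical inhibitor genes (green) in each sample, on an axis from 0. Green bars are lower than blue bars in the 3 PBS samples (41.6 to 46.2 FPKM) and higher in the 3 CTX samples (86.4 to 101.0 FPKM).

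The rest of the pathway was read from 111 further genes in 7 lists, of which 81 passed the filter on low values. There were 9 DEGs higher after CTX and 0 lower, beside 0.802% and 0.159% of all genes tested. The median log2 difference of the 81 genes was 0.04. The lists were chosen with earlier results of these data known, so their counts are a description only. At an unadjusted limma p below 0.05, 17 were higher and 5 lower of the 81, beside the 10.5% and 9.10% of all genes tested. The DEGs were 6 of 18 tested target genes, 1 of 9 receptors, 1 of 3 ligands and 1 of 7 genes that link DNA damage to NF-kB, and none belonged to the 4 other family genes, the 11 kinases or the 29 ubiquitin and adaptor genes tested.

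No family, kinase or adaptor gene was a DEG. Every CTX sample was above every PBS sample in 1 of 4 family, 2 of 11 kinase and 6 of 29 ubiquitin and adaptor genes tested. Every CTX sample was below in 0, 1 and 2 of them. Beside these stand 15.0% above and 14.1% below of all genes tested. Rel, the gene of c-Rel, which is the remaining family subunit, was at 2.72, 2.75 and 2.27 FPKM in PBS and 3.76, 3.56 and 4.19 FPKM in CTX, without overlap, with a log2 difference of 0.56 (limma adjusted p = 0.0898). Of the IKK and upstream kinase list, differences ran from -0.19 for Tab1 to 0.18 for Map3k3, and neither passed (adjusted p = 0.254 and 0.203 in limma). At an unadjusted limma p below 0.05, Rel was higher in the family list, and in the kinase list Map3k3 was higher and Tab1 lower. The ubiquitin and adaptor list held 3 higher and 0 lower genes at that p. Of all genes tested, 10.5% were higher and 9.10% lower. In the ubiquitin and adaptor list Rbck1, a subunit of the linear ubiquitin ligase that feeds IKK, rose from 23.4 ± 0.868 to 30.8 ± 1.26 FPKM (SD, n = 3 each), a difference of 0.39 that passed the adjusted p (0.0428, limma) but not 2-fold. Irak2, a kinase adaptor of the interleukin-1 and Toll-like receptors, had the largest difference of that list, 1.09, but at 3.60, 7.72 and 4.33 FPKM its CTX samples were too scattered to pass (PBS 2.03, 2.48 and 2.29 FPKM, adjusted p = 0.127). The family gene Nkiras1 had a difference of -0.36 (adjusted p = 0.403, limma).

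Upstream genes that changed were few. Pidd1, the scaffold that passes a DNA damage signal towards IKK and also activates caspase-2, was at 6.63, 6.84 and 6.38 FPKM in PBS and 18.7, 13.7 and 18.9 FPKM in CTX, a difference of 1.34 (SE 0.14, limma adjusted p = 0.00763). In the same list Ercc1, a DNA repair nuclease subunit, had a difference of -0.38 (adjusted p = 0.155, limma). Cd14, a co-receptor for bacterial lipopolysaccharide, rose from 1.07 ± 0.222 to 2.75 ± 0.419 FPKM (SD, n = 3 each, limma adjusted p = 0.0347). Il1b, which encodes interleukin-1 beta, was scarce, at 0.206, 0.0858 and 0.194 FPKM in PBS and 1.01, 1.03 and 1.26 FPKM in CTX on 3 to 43 reads (difference 2.23, limma adjusted p = 0.0379). Its receptor gene Il1r1 was at 9.21, 8.97 and 8.34 FPKM in PBS and 8.23, 4.23 and 5.51 FPKM in CTX, a difference of -0.61 that did not pass (adjusted p = 0.227), and neither did the ligand gene Tnfsf12 (-0.36, adjusted p = 0.623).

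Target genes that rose encode chemokines, an adhesion molecule, a cytokine and regulators of the stress response. Cxcl1, a neutrophil-attracting chemokine, went from 6.49, 5.0 and 5.86 FPKM in PBS to 31.3, 39.0 and 32.5 FPKM in CTX, a difference of 2.55 (SE 0.13, limma adjusted p = 8.2e-04). Its relative Cxcl2 was lower but kept pace, at 0.570, 0.607 and 0.478 FPKM in PBS and 3.44, 3.57 and 3.89 FPKM in CTX (2.52, SE 0.15, limma adjusted p = 0.00119). Ier3, an immediate-early gene of cell survival, was the most abundant, at 56.9, 60.4 and 58.4 FPKM in PBS and 141.0, 152.6 and 145.6 FPKM in CTX. That was a difference of 1.32 (SE 0.06, limma adjusted p = 8.17e-04), close to that of Nfkbia. Irf1, an interferon regulatory transcription factor, rose by 1.25 (limma adjusted p = 0.00411), with 6.65, 6.78 and 7.10 FPKM in PBS and 14.7, 18.9 and 15.8 FPKM in CTX.

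Icam1, an adhesion molecule for leukocytes (difference 1.82, limma adjusted p = 0.0385), and Lif, a cytokine of the interleukin-6 family (difference 2.27, limma adjusted p = 0.0471), were low, at no more than 1.39 and 2.60 FPKM in any sample. Ier3, Irf1, Cxcl1, Cxcl2 and Nfkbia were DEGs in each of the 6 fits that left out 1 sample. Pidd1 was a DEG in 3 of these 6, Cd14 in 2, Icam1 and Lif in 1 each and Il1b in none. Not every target gene rose: Ptgs2 and Ptx3, genes of the ovulatory response that were chosen after their values were seen, had differences of -1.41 and -2.04 and did not pass (limma adjusted p = 0.179 and 0.211). The Ptx3 samples spread from 1.23 to 10.8 FPKM within PBS.

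**Figure D4:**
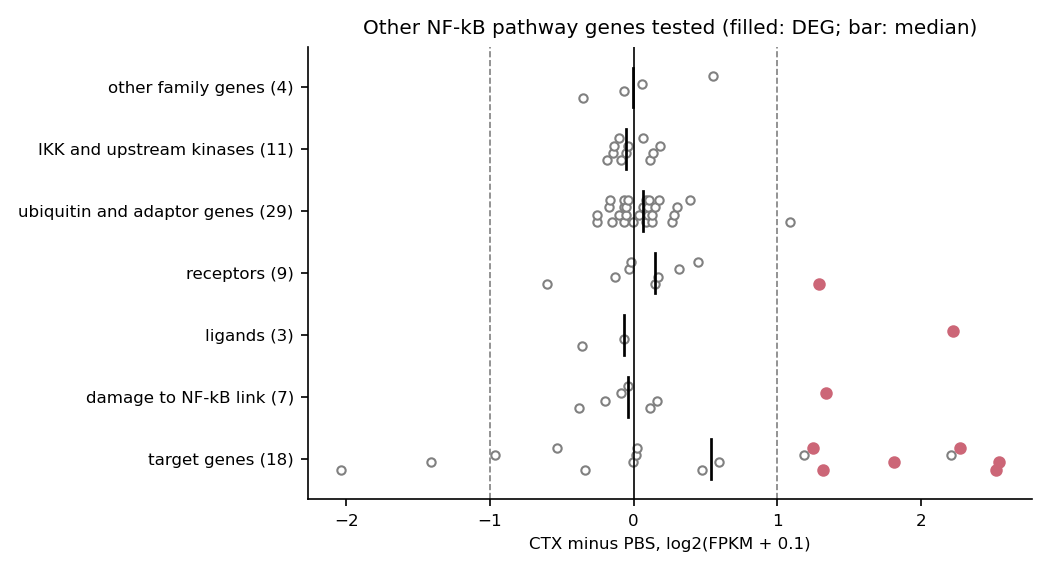
Log2 difference (CTX minus PBS, on log2(FPKM + 0.1)) of each tested gene in 7 lists of other NF-kB pathway genes, with the number tested in brackets; filled points are DEGs, black bars list medians and dashed lines 2-fold. DEGs occur among receptors, ligands, damage-link and target genes, and the kinase list stays between -0.19 and 0.18.

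Markers of other cells were read beside these results. The summed FPKM of 18 leukocyte markers was 28.6 to 30.8 in PBS and 44.1, 76.8 and 30.3 in CTX, and Ptprc, which encodes the pan-leukocyte marker CD45, was at 0.0640 to 0.0983 FPKM in every sample. The most abundant leukocyte markers were Lyz2, Cd68 and C1qa, all genes of macrophages. Lyz2, at 13.7 ± 0.586 FPKM in PBS and 22.9, 45.8 and 14.7 FPKM in CTX, was the largest part of the sum in every sample. Of the 12 tested leukocyte markers, 3 had every CTX sample above every PBS sample and 1, Coro1a, had every CTX sample below. The shares of all genes tested were 15.0% and 14.1%. At an unadjusted limma p below 0.05, Tyrobp was higher and S100a9 lower, beside 10.5% higher and 9.10% lower of all genes tested. Tyrobp had 12 to 46 reads per sample. S100a9 had 3 to 16, and its PBS and CTX ranges overlapped. In CTX replicates 1, 2 and 3 Nfkbia was at 89.0, 83.8 and 74.3 FPKM. Whether it follows the leukocyte sum was not tested. Of the leukocyte markers 12 of 18 were tested and 1, Cd3e, was at 0 in at least 1 sample. The 8 theca and stroma markers, led by Cyp17a1, Col1a1 and Col3a1, summed to 59.8 to 61.3 FPKM in PBS and to 80.2, 16.7 and 50.6 FPKM in CTX. Within this sum the genes differed. Cyp17a1 was at 30.8, 32.9 and 34.4 FPKM in PBS and 29.6, 1.25 and 12.4 FPKM in CTX. Col1a1 was at 9.58, 8.99 and 8.18 FPKM in PBS and 16.9, 2.65 and 12.3 FPKM in CTX. The 8 endothelial markers, led by Cdh5, Egfl7 and Pecam1, summed to 6.78 to 7.41 FPKM in PBS and 2.81 to 6.21 FPKM in CTX. The 8 oocyte markers, led by Gdf9, Zp3 and Zp2, summed to 35.8 to 76.6 and 51.1 to 90.7 FPKM. GC markers summed to 13857 to 15178 FPKM in PBS and to 11896 to 12790 FPKM in CTX, sums that are mostly Inha. Of the 12 GC markers 8 had every CTX sample below every PBS sample and 1, Amh, had every CTX sample above. Over all genes tested these shares were 14.1% and 15.0%. Amh was at 49.4 ± 1.43 FPKM in PBS (SD, n = 3) and at 54.3, 178.7 and 85.5 FPKM in CTX. Mean Esr2 was 54.1 FPKM in PBS and 87.3 FPKM in CTX, with overlapping ranges, and Fst was level at 290 FPKM. At an unadjusted limma p below 0.05, 4 markers (Inhbb, Foxl2, Inhba and Fshr) were lower, beside 9.10% of all genes tested. Inhbb was at 1623 ± 37.7 FPKM in PBS and 831 ± 275 FPKM in CTX, and Foxl2, a transcription factor of GC identity, at 188 ± 4.88 and 110 ± 34.2 FPKM (SD, n = 3 each). Foxl2, Inhba, Fshr, Cyp19a1, Amh, Esr2, Fst, Coro1a, Tyrobp and S100a9 were named after their values were seen. Cyp19a1, the aromatase gene, was at 60.5 ± 1.67 FPKM in PBS and at 47.6, 6.61 and 32.5 FPKM in CTX. No marker was a DEG in the limma fit, while 1 was higher and 5 lower at an unadjusted p below 0.05. The part of these shifts in the changes of NF-kB genes was not tested.

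**Figure D5:**
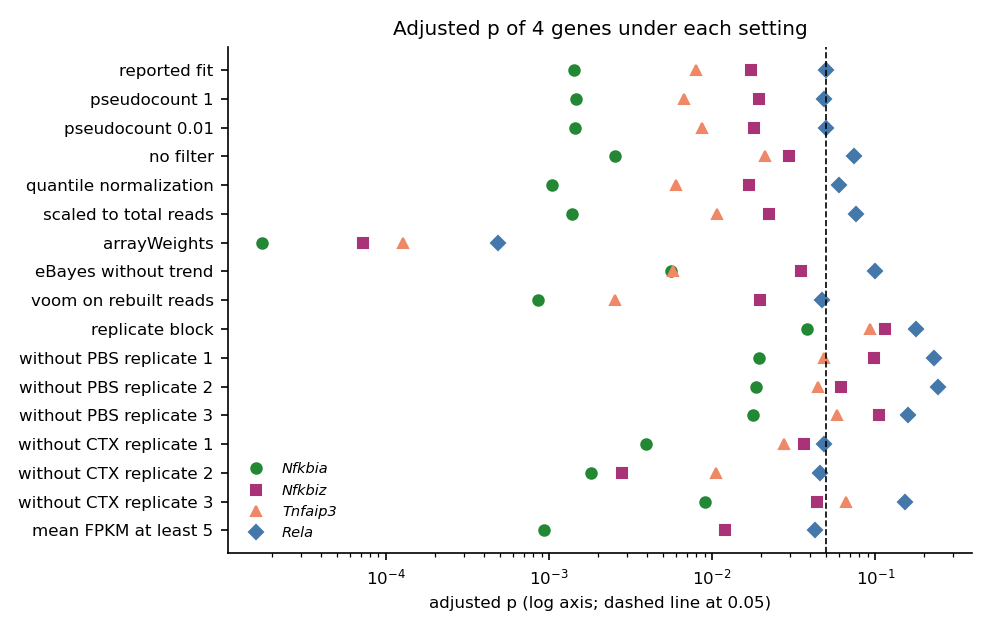
Benjamini-Hochberg adjusted p from limma (log axis) of Nfkbia, Nfkbiz, Tnfaip3 and Rela in the reported fit and under each alternative setting, with a dashed line at 0.05. Nfkbia stays below the line throughout, Nfkbiz and Tnfaip3 lie above it with the replicate block and in some fits with fewer samples, and Rela lies close to it in the reported fit (0.0502).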

How the data were processed

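RNA-seq was measured in GCs of 6 samples, grouped by their labels into PBS and CTX (3 each). Per the submitters' processing notes, CASAVA 1.8, fastp, HISAT2 2.0.5, featureCounts 1.5.0-p3 and DESeq2 1.20.0 were used with genome build mm10. The authors deposited FPKM values per gene, which scale out gene length and sequencing depth. Group means, fold changes and p-values of the authors were not used. Reads were rebuilt from FPKM and gene length, and 100% of values were whole within 0.05. These totals gave the depth, and intervals cover the spread between samples.

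FPKM was compared as log2(FPKM + 0.1) with limma 3.58.1 (lmFit, eBayes with trend) in R 4.3.3, over 14463 genes with a mean of at least 0.5 FPKM and Benjamini-Hochberg adjustment. DEGs had an adjusted p below 0.05 and over 2-fold change, as in the study. The fit was tried on simulated data with equal noise in both groups. The CTX samples here spread more than the PBS samples, a setting which that simulation did not cover. Python 3.11.15 was used for tables. The members and lists were chosen with earlier results of these data known. Named genes are the 10 members, Rel, the DEGs and the 2 largest changes of each pathway list, the leading markers and overlapping genes. Alternatives changed the pseudocount, filter, scaling, weighting, model or samples, or used voom on rebuilt reads. Samples hold different mice, so the p-values reflect the spread between pools, and replicate numbers were not used as a block.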

Additional observations from a re-analysis of the deposited data

How the results depend on the processing

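The 3 DEGs became 1 with the replicate block and 1 to 3 when 1 sample was left out; 1, Nfkbia, remained without PBS replicate 3. The count past the adjusted p was 7 with arrayWeights, 1 with the replicate block and 1 to 4 when 1 sample was left out. The 9 higher DEGs among other pathway genes became 5 with a pseudocount of 1, 4 with a mean of at least 5 FPKM, 4 with the replicate block and 4 to 9 when 1 sample was left out, and the 0 lower DEGs became 2 (Ptgs2 and Ptx3) with arrayWeights. arrayWeights gave CTX replicate 2 a weight of 0.164 and CTX replicate 3 one of 16.6, and DEGs among all genes ranged from 50 to 657 over the 16 alternatives. Same-numbered samples correlated at 0.0556, 0.0242 and 0.00581 in their deviations from group means, so the numbers were not taken to pair them. With the replicate block the adjusted p was 0.0383 for Nfkbia, 0.115 for Nfkbiz and 0.0931 for Tnfaip3. Directions turned only in Nfkb2, Nfkbib and Nfkbie, none of which was called. Nfkb2 was -0.0033 with quantile normalization, -0.0088 when scaled to total reads, -0.0173 with arrayWeights and -0.029 to 0.0529 when 1 sample was left out. Nfkbib was -0.0297 to 0.143 when 1 sample was left out. Nfkbie was 0.0015 with a pseudocount of 0.01, 0.0767 with quantile normalization, 0.275 with arrayWeights, 0.0009 with voom and -0.160 to 0.224 when 1 sample was left out. Nfkbie, Bcl3, Nfkb1, Relb and Tnfaip3 could not be tested at a mean of at least 5 FPKM. The cause of these shifts was not tested. Among the members and the pathway DEGs, counts under 100 reads in every sample lay behind Nfkbie, Bcl3, Cd14 and Il1b. Markers with counts that low included Ptprc, Coro1a, Tyrobp and S100a9.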

Other observations

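Among genes below the filter, chosen after their values were seen, Nfkbid, which encodes the atypical inhibitor IkB-NS, had 7, 7 and 4 rebuilt reads in PBS and 17, 23 and 24 in CTX. Tnf, the gene of the ligand that gave Tnfaip3 its name, had 2, 2 and 1 reads in PBS, at or under a floor of 3 reads, and 8, 5 and 14 in CTX. Neither was tested. Gadd45b, a stress gene of the target list also chosen after its values were seen, had a log2 difference of 2.21 that did not pass in limma (adjusted p = 0.0894).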
